A study of Mus musculus with 30 samples.

Results

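The suppressors of cytokine signalling (SOCS) are 8 related proteins, Socs1 to Socs7 and Cish, which were picked out by their gene symbol in the platform's annotation. The array carried all 8 genes on 24 probe sets, of 18193 genes and 45037 probe sets in all. After the filter on dim signal, 8 of 8 genes and 19 of the 24 probe sets remained, among 13089 genes and 24825 probe sets. Each gene below is represented by its probe set with the highest mean.

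Cytokine receptors such as those of interleukin 6 and the interferons lack an enzyme of their own and signal through bound JAK kinases, which phosphorylate STAT transcription factors. STATs switch on Socs genes, and SOCS proteins then bind the receptor or the kinase and recruit a ubiquitin ligase through their SOCS box, which closes a negative feedback loop. In the lung, inhaled lipopolysaccharide (LPS, a bacterial cell wall component) is sensed through Toll-like receptor 4 and elicits cytokines that signal in this way.

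Total RNA of whole lungs from 30 C57BL/6 mice was measured on Affymetrix 430 2.0 arrays, 1 animal per array, in 8 groups. LPS+MV mice breathed an aerosol made from 20 mL of E. coli LPS at 0.1 mg/mL for 30 min and were then mechanically ventilated for 2 h. LPS mice had the same aerosol and then breathed spontaneously for 2 h. MV mice were ventilated for 2 h without LPS. Ventilation used a tidal volume of 15 mL/kg, 30% oxygen and an end-expiratory pressure of 2 cmH2O. Controls were untreated and breathed spontaneously, and no study period is given for them. Adults were 16 weeks old and juveniles 21 days old, with 4 mice in each group except 3 in juvenile LPS+MV and 3 in juvenile MV. The controls had neither a sham aerosol nor a sham ventilation in the labels, so handling and treatment cannot be told apart. In RNA of whole lung, fewer cells of a type and less RNA per cell cannot be told apart either.

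Array medians lay between 21.6 and 22.8 intensity units, and how many arrays there were limits the precision. Markers of alveolar type 2 cells were bright on every array (summed intensity of 6 genes 38530 to 48099). Against control, 4 of those 6, 4 of 6 alveolar type 1 and 5 of 8 endothelial markers were lower in adult LPS+MV (27.3% of all genes were lower). The counts were 3, 4 and 5 in adult LPS (23%) and 2, 4 and 3 in adult MV (24.3%). In adult LPS and in adult MV 1 alveolar type 2 marker was higher (12.9% and 7.17% of all genes). In juveniles 3, 2 and 0 were lower after LPS+MV (20.5%), 2, 1 and 1 after LPS (13.3%), and 0, 0 and 0 after MV (6.45%). The part of such shifts in the SOCS values was not tested. Xist was high (425 to 771) on 11 arrays and low (18.2 to 27.0) on 19. The high arrays were 3 of 4 adult LPS+MV, 0 of 4 adult LPS, 4 of 4 adult MV, 0 of 4 adult control, 2 of 3 juvenile LPS+MV, 0 of 4 juvenile LPS, 1 of 3 juvenile MV and 1 of 4 juvenile control arrays, and the labels give no sex. Some arrays stood apart. Heat shock genes were highest on replicate 3 of juvenile MV and replicate 3 of juvenile LPS+MV, and those 2 arrays, replicate 2 of adult LPS+MV and replicate 4 of juvenile control correlated least with their own groups (mean r 0.979 to 0.983).

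Sequence upstream of the start site was held for 4 of the 8 genes (RefSeq, GRCm38.p6). The windows of Cish and Socs1 are printed because they belong to members that rose and hold a match to the motif of a JAK-STAT effector. Each line runs 5′ to 3′ from 250 bases before the listed start to 30 bases after it. Capitals mark a STAT motif (TTCNNNGAA) in Cish and an interferon-stimulated response element (GAAA, any 2 bases, GAAA) in Socs1.
Cish, chr9:107296409-107296688, plus strand: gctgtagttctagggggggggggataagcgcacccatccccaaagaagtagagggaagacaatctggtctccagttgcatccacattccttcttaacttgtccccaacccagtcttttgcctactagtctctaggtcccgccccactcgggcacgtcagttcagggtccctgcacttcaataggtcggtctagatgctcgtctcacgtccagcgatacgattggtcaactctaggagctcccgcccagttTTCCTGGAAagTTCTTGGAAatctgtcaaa
Socs1, chr16:10785507-10785786, minus strand: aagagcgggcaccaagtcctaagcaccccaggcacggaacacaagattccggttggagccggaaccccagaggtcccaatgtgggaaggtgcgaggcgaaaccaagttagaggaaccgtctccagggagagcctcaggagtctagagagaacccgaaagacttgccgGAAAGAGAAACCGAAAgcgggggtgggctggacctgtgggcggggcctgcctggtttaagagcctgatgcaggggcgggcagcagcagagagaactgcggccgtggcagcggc
Cish held 2 STAT matches, TTCCTGGAA at bases 1 to 9 and TTCTTGGAA at bases 12 to 20 after the start. Socs1 held 2 overlapping response elements, GAAAGAGAAA from -83 to -74 and GAAACCGAAA from -77 to -68. The start listed for Socs3 lies 970 bases inside the annotated gene (chr11:117966079-117970336), and its window held 1 STAT match, TTCTTAGAA, at -154 to -146. The window of Socs4 held none of the motifs searched. Over 300 bases and both strands, 8.3% of 32851 windows held a STAT match and 3.44% a response element, while a match to AP-1 (TGANTCA) was held by 7.81% and a match to kappaB by 8.46%. Neither of those last motifs was found in the 4 windows. A match is a run of letters and not a measured binding site.

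Differences were tested with limma on log2(intensity + 32), so that fold changes of dim genes are understated, and p-values were adjusted by Benjamini and Hochberg over 13089 genes within a comparison. A gene is called where the adjusted p is under 0.05. Fold changes are given on that log2 scale with the standard error of the fit. After LPS+MV in adults, 5 of the 8 members were higher than in controls, where 14.8% of all genes were called higher. Without adult control replicate 3 or adult LPS+MV replicate 4 this count was 3. Adult LPS raised 4 members (12.9% of genes were higher), and adult MV gave a call in 0 of 8 (31.5% in either direction). In juveniles, LPS+MV raised 4 of 8 (10.8%), LPS raised 3 and lowered 1 (9.58% higher and 13.3% lower), and MV raised 1 (4.41%). The MV count was 0 without juvenile MV replicate 1 or replicate 3. At an unadjusted p under 0.05 adult MV and control also differed in 0 members. The median change over the 8 members was 0.28 in adult LPS+MV and 0.37 in juvenile LPS+MV, against -0.05 over all genes in each.

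**Figure D1:**
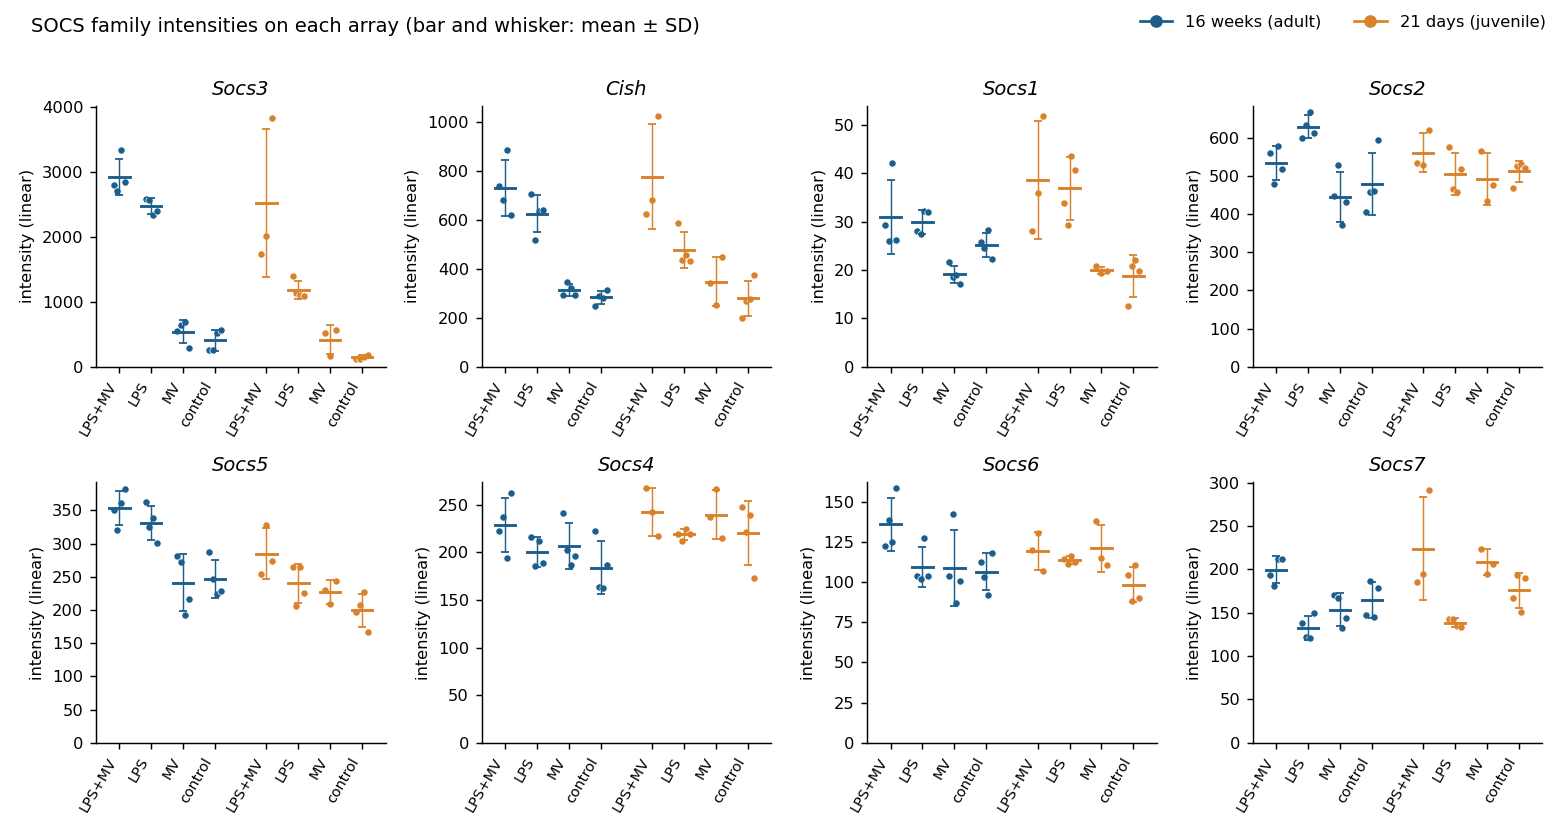
Intensity (linear scale) of each SOCS family gene on each of the 30 arrays, adults in blue and juveniles in orange, with bars and whiskers for the mean ± SD of 3 or 4 mice. Socs3 and Cish stand high in both LPS groups of each age, and the mean of Socs3 is 2925 in adult LPS+MV and 141 in juvenile controls.

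Socs3, which blocks JAKs at the gp130 receptor chain used by interleukin 6, had the widest range of the family, with a highest group mean 20.7 times its lowest. In adult LPS+MV lungs its intensity was 2797, 2712, 3339 and 2849, and in adult LPS lungs 2580.2, 2571, 2335 and 2399.7. Adult MV lungs had 544, 641, 683 and 281, and adult controls 257, 264, 519.7 and 571. Neither LPS group overlapped with the controls, whereas the MV range covered most of the control range. The change against control was 2.84 ± 0.29 for LPS+MV (limma adjusted p = 1.5e-08) and 2.61 ± 0.29 for LPS (limma adjusted p = 9.2e-08). For adult MV it was 0.40 ± 0.29 (95% interval -0.20 to 1.01, limma adjusted p = 0.32). In this brightest probe set every adult LPS+MV array lay above every adult LPS array. The difference of 0.24 ± 0.29 did not pass (limma adjusted p = 0.67), and 6.98% of all genes were higher without overlap there. LPS+MV and LPS ranges overlapped for 1416576_at (944 to 1341 and 862 to 1157) and for 1456212_x_at (1471 to 2162 and 1450 to 1670).

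In juvenile LPS+MV lungs Socs3 had 1736, 2011 and 3835, and in juvenile LPS lungs 1397, 1134, 1108 and 1095. Juvenile MV lungs had 520.1, 159 and 562, and juvenile controls 113, 124, 144 and 182. Both LPS groups were clear of the controls, and of the 3 MV lungs 2 lay above every control while replicate 2 lay among them. Socs3 rose by 3.81 ± 0.32 with LPS+MV (limma adjusted p = 3.6e-10), by 2.82 ± 0.29 with LPS (limma adjusted p = 2.4e-08) and by 1.22 ± 0.32 with MV (limma adjusted p = 0.015). The MV call ended without MV replicate 1 (0.98, limma adjusted p = 0.094), without MV replicate 3 (0.93, limma adjusted p = 0.12) and in a fit of the compared groups only (limma adjusted p = 0.11). Heat shock genes were highest on that same MV replicate 3, and their part in the result was not tested. Of the other Socs3 probe sets, 1416576_at gave 0.76 in juvenile MV (limma adjusted p = 0.073). For 1456212_x_at, juvenile MV lungs had 292, 79.1 and 309, and juvenile controls 63.0, 78.4, 81.8 and 116.

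Between LPS+MV and LPS in juveniles, Socs3 differed by 0.99 ± 0.32 (limma adjusted p = 0.033), and 3 of 8 members were higher (5.97% of all genes). LPS+MV replicate 3 was the array with the highest Socs3 and the second array high in heat shock genes. Without it the Socs3 difference was 0.65 (limma adjusted p = 0.24), and the count of members called was 1. Leaving out LPS replicate 2, 3 or 4 also ended the Socs3 call (0.96 to 0.98, limma adjusted p = 0.063 to 0.071). With a term for high Xist it was 0.73 (limma adjusted p = 0.20).

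Untreated lungs of the 2 ages differed in Socs3. Adult controls were higher by 1.26 ± 0.29 (limma adjusted p = 0.0022), with no overlap, and Socs3 was the 1 member of 8 called there (25.2% of all genes in either direction, 15.1% higher). In the same comparison 6 of 8 neutrophil, 5 of 9 macrophage and monocyte and 5 of 6 B cell markers were higher in adult controls and 0 lower, and their part in the result was not tested. The count was 2 without juvenile control replicate 3 (Socs5 then also higher) or replicate 4, or without adult control replicate 1 (Socs4 then also lower). In 3 comparisons of age added after the levels were seen, Socs3 was also higher in adult than in juvenile LPS lungs (1.05 ± 0.29, limma adjusted p = 0.013). Against juvenile lungs the adult difference was 0.29 ± 0.32 after LPS+MV and 0.45 ± 0.32 after MV, and neither passed (limma adjusted p = 0.63 and 0.33). After LPS+MV 0 of 8 members were called between the ages, where 12.2% of all genes were. The interaction of age with treatment, which asks whether the response itself differed, was -0.97 ± 0.43 for LPS+MV, -0.21 ± 0.42 for LPS and -0.81 ± 0.43 for MV, with limma adjusted p of 0.22, 0.85 and 0.27. None of the 8 members passed any of these 3 interactions, in which 2.1%, 3.69% and 6.13% of all genes were called. Without adult control replicate 4, Socs2 passed the interaction of age with LPS (0.51, limma adjusted p = 0.040). At an unadjusted p under 0.05, Socs1 and Socs3 passed for LPS+MV, Socs1 and Socs2 for LPS, and 0 members for MV.

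Neutrophil markers were summed because these cells enter the lung after LPS. Of 10 markers 8 were measured under a single symbol, and all 8 passed the filter on dim signal. Their sum was 19381, 17888, 22119 and 22839 in adult LPS+MV, 34778, 23160.3, 23714 and 21136 in adult LPS, 9921, 2619.5, 5806 and 4953 in adult MV and 4349, 2893, 17776 and 23697 in adult controls. Adult controls 3 and 4 had high sums, and the same 2 lungs had the higher Socs3 of that group (519.7 and 571, against 257 and 264). In juveniles the sum was 17024, 16097 and 16042 after LPS+MV, 7231, 7079, 8748 and 7935 after LPS, 5619, 3285 and 5085 after MV and 1048, 1168, 2369 and 4097 in controls. Of the 8 markers, 3 were higher in adult LPS+MV (14.8% of all genes were higher), 5 in adult LPS (12.9%) and 8 in juvenile LPS+MV (10.8%). Juvenile LPS had 3 higher (9.58%) and juvenile MV 2 (4.41%), each against control. Adult MV had 1 higher and 1 lower, where 7.17% of all genes were higher and 24.3% lower. The part of these markers in the Socs3 differences was not tested.

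**Figure D2:**
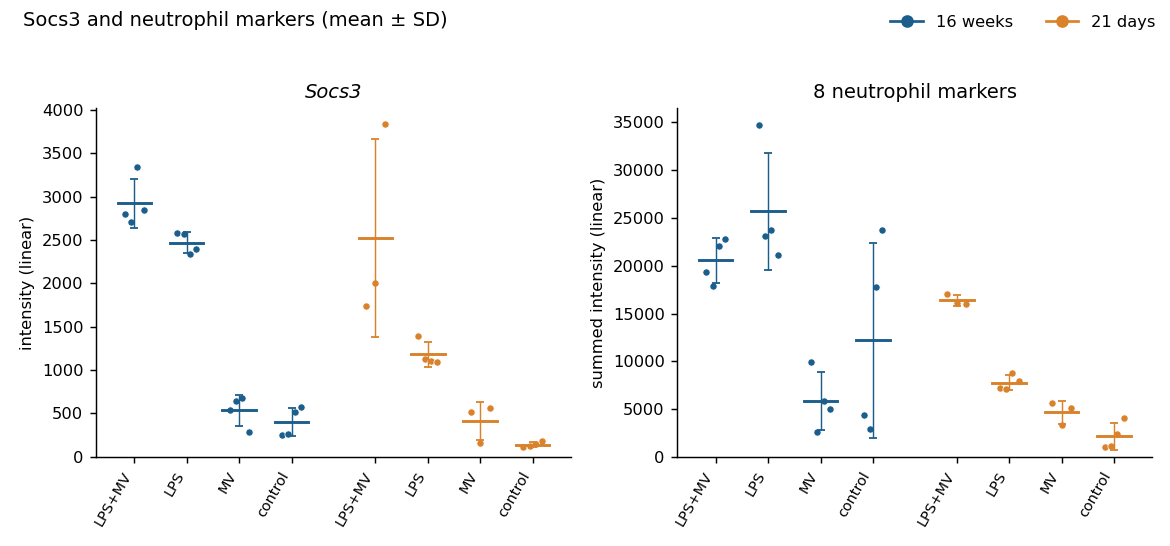
Socs3 intensity (left) and the summed intensity of 8 neutrophil markers (right) on each array, both on linear axes, with the mean ± SD per group. Adult controls split on both axes, with 2 lungs at 257 and 264 for Socs3 and sums of 4349 and 2893, and 2 lungs at 519.7 and 571 with sums of 17776 and 23697.

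Cish, which is induced by STAT5 and binds cytokine receptors, followed the LPS groups with a narrower range (highest group mean 2.79 times the lowest). Its intensity was 738, 680.0, 888 and 620.2 in adult LPS+MV and 705, 520.1, 638 and 641 in adult LPS. Adult MV lungs had 292, 344, 321 and 293, and adult controls 248, 291, 282 and 312. The 2 LPS groups overlapped with each other and with neither of the other groups. Cish rose by 1.27 ± 0.16 with LPS+MV and by 1.06 ± 0.16 with LPS (limma adjusted p = 4.7e-07 and 9.8e-06), and differed by 0.13 ± 0.16 with MV (95% interval -0.20 to 0.46, limma adjusted p = 0.58).

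Juvenile LPS+MV lungs had Cish at 626, 683 and 1025, and juvenile LPS lungs at 587, 435, 456 and 434. Juvenile MV lungs had 344, 251 and 449, and juvenile controls 197, 269, 276 and 374. Neither LPS group overlapped with the controls. The changes against control were 1.38 ± 0.17 for LPS+MV and 0.73 ± 0.16 for LPS (limma adjusted p = 7.6e-07 and 0.0012). LPS+MV exceeded LPS by 0.65 ± 0.17 (limma adjusted p = 0.012), a call that ended without LPS+MV replicate 3 (0.44, limma adjusted p = 0.13) and with the Xist term (0.44, limma adjusted p = 0.13). Adult and juvenile controls differed by 0.04 ± 0.16 (95% interval -0.29 to 0.38, limma adjusted p = 0.88).

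Socs1, the main brake on interferon gamma signalling, was dim, and its probe set exceeded the array's own median on 19 of 30 arrays. Juvenile LPS+MV lungs had 28.0, 35.9 and 52.0, and juvenile LPS lungs 33.9, 29.4, 43.6 and 40.6. Juvenile MV lungs had 20.7, 19.3 and 19.8, and juvenile controls 12.5, 20.8, 22.1 and 19.7. Both juvenile LPS groups were clear of both other juvenile groups. Socs1 rose by 0.47 ± 0.09 with LPS+MV and by 0.44 ± 0.08 with LPS (limma adjusted p = 2.4e-04 and 2.4e-04), and with a pseudocount of 1 these changes were 0.99 and 0.95. On every juvenile control, juvenile MV and adult MV array Socs1 lay below the array's median, so the size of its change against them is uncertain.

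In adult LPS+MV lungs Socs1 had 29.3, 26.0, 42.2 and 26.2, and in adult LPS lungs 28.0, 27.4, 32.2 and 32.01. Adult MV lungs had 21.6, 18.5, 19.0 and 17.2, and adult controls 25.9, 24.6, 28.3 and 22.3. The MV arrays all lay below the controls and the LPS groups overlapped with the controls. Neither LPS+MV (0.13 ± 0.08) nor LPS (0.11 ± 0.08) passed against control (limma adjusted p = 0.22 and 0.30). MV gave -0.16 ± 0.08 (limma adjusted p = 0.14), the 1 member without overlap there (22.9% of genes were lower without overlap). Xist was high on all 4 adult MV arrays and on no adult control, so high Xist and ventilation cannot be told apart within this comparison. With the Xist term, whose size then comes from the other groups, the Socs1 difference was -0.31 (limma adjusted p = 0.042). The interaction of age with LPS+MV was -0.34 ± 0.12 and with LPS -0.33 ± 0.12 (limma adjusted p = 0.13 and 0.13), so the larger change in juveniles did not pass a test of the difference. LPS+MV exceeded MV in adults by 0.29 ± 0.08 (limma adjusted p = 0.013), but not without adult LPS+MV replicate 3 (0.21, limma adjusted p = 0.085).

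Socs5, reported to restrain the interleukin 4 and epidermal growth factor receptors, had 349.8, 321, 360.3 and 382 in adult LPS+MV and 362, 325, 338 and 301 in adult LPS. Adult MV lungs had 281, 273, 193 and 217, and adult controls 288, 246, 224 and 229. Both LPS groups were clear of the controls and rose by 0.47 ± 0.10 and 0.39 ± 0.10 (limma adjusted p = 6.6e-04 and 0.0049). Juvenile LPS+MV lungs had 254, 327 and 273, and juvenile controls 197, 207, 226 and 168. That change was 0.45 ± 0.11 (limma adjusted p = 0.0029), and juvenile LPS alone gave 0.23 ± 0.10 (limma adjusted p = 0.11). Adult LPS lungs exceeded juvenile LPS lungs by 0.42 ± 0.10 (limma adjusted p = 0.0055, among 3 members higher there, where 8.85% of all genes were). The second Socs5 probe set, 1423349_at, rose in adult LPS+MV (0.77), adult LPS (0.47), adult MV (0.35) and juvenile LPS+MV (0.37). Its means in adult and juvenile LPS lungs were 210.5 and 200.1, with overlapping ranges, and 144.4 and 166.4 in adult and juvenile controls. The age difference after LPS is therefore that of the brightest probe set.

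Socs2, a regulator of growth hormone signalling, had 562, 479, 579 and 519.6 in adult LPS+MV and 600.2, 634, 669.9 and 614 in adult LPS. Adult MV lungs had 448, 529.6, 373 and 431, and adult controls 405, 459.6, 461 and 595. LPS alone cleared the controls by 0.38 ± 0.10 (limma adjusted p = 0.0048), while LPS+MV gave 0.16 ± 0.10 (limma adjusted p = 0.24). Without adult control replicate 4 the LPS+MV change was 0.26 and passed (limma adjusted p = 0.044). Without adult MV replicate 2 it also exceeded MV (0.34, limma adjusted p = 0.028). In juveniles the group means spanned 492 to 562, and the brightest probe set gave no call.

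The other Socs2 probe sets did not all follow the brightest. Probe set 1438470_at rose in adult LPS+MV (0.49), adult LPS (0.61), adult MV (0.35), juvenile LPS+MV (0.52) and juvenile MV (0.39), with limma adjusted p over 24825 probe sets of 2.0e-04 in juvenile LPS+MV. The 4 dimmer Socs2 probe sets that passed the filter rose in juvenile LPS+MV against control, by 0.26 to 0.52, against a background of 11.2% of probe sets higher. For 1446085_at, juvenile LPS+MV lungs had 40.3, 42.9 and 61.7, and juvenile LPS lungs 22.2, 18.6, 20.2 and 25.4. The adult LPS rise was not shared by all of them. Adult LPS and control ranges overlapped for 1449109_at (397 to 468 and 337 to 444). Means in adult LPS and control were 32.7 and 30.6 for 1442586_at, and 18.3 and 22.9 for 1446085_at. Taking the mean over probe sets, Socs2 rose in juvenile LPS+MV by 0.37 (limma adjusted p = 1.7e-04) and in adult LPS+MV by 0.23 (limma adjusted p = 0.0046), and its adult LPS change was 0.22. Which transcripts the Socs2 probe sets detect is not given in the sources used here.

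**Figure D3:**
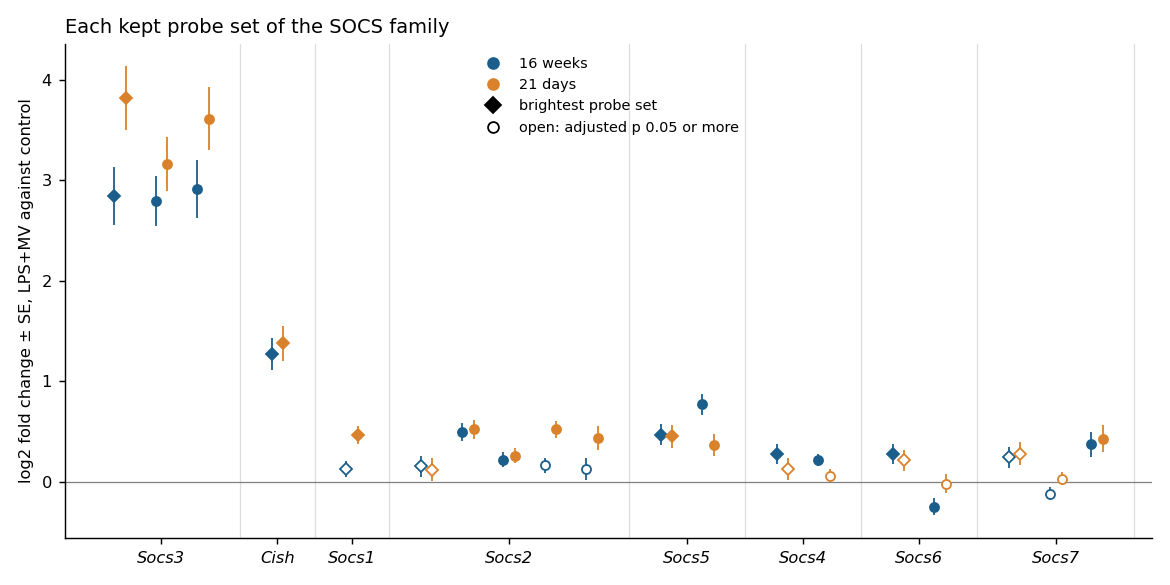
Change between LPS+MV and control (log2 fold change ± SE) for each of the 19 kept SOCS probe sets, with diamonds for the brightest of each gene and open symbols where the adjusted p was not under 0.05. The 3 Socs3 probe sets lie at 2.80 to 2.91 in adults and 3.16 to 3.81 in juveniles, while the Socs6 pair lies on opposite sides of 0 in adults (0.28 and -0.25).

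Socs4 and Socs6, linked in other work to growth factor receptor and insulin signalling, had the narrowest ranges of the family, with a highest group mean 1.32 and 1.38 times the lowest. Socs4 had 223, 237, 195 and 262 in adult LPS+MV, and 222, 164, 163 and 187 in adult controls. The groups overlapped, and the rise of 0.28 ± 0.10 (limma adjusted p = 0.028) ended without adult control replicate 2 or 3 or adult LPS+MV replicate 2 or 4 (0.22 to 0.26, limma adjusted p = 0.063 to 0.11). Socs6 had 123, 138, 125 and 158 in adult LPS+MV, and 112, 103, 91.8 and 118 in adult controls. Its rise of 0.28 ± 0.10 (limma adjusted p = 0.021) ended without adult control replicate 3 (0.23, limma adjusted p = 0.084) or adult LPS+MV replicate 4 (0.22, limma adjusted p = 0.092). The dimmer Socs6 probe set, 1435492_at, fell by 0.25 in the same comparison (limma adjusted p = 0.029), so the direction of Socs6 there is not settled. Against MV, Socs6 gave 0.27 ± 0.10 in adult LPS+MV (limma adjusted p = 0.056), which passed without adult MV replicate 2 (0.38) or adult LPS+MV replicate 1 (0.30).

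Socs7, which binds insulin receptor substrates, was higher after LPS+MV than after LPS at both ages. Its intensity was 193, 181, 212 and 212 in adult LPS+MV and 139, 123, 121 and 149 in adult LPS. Adult MV lungs had 171, 168, 132 and 144, and adult controls 148, 186, 145 and 178. LPS+MV lungs lay above every LPS lung, while both overlapped with the controls. LPS+MV exceeded LPS by 0.49 ± 0.10 (limma adjusted p = 0.0039), the 1 member of 8 called there (3.69% of all genes were higher). Socs2 was lower without overlap in the same comparison (-0.23 ± 0.10, limma adjusted p = 0.18; 9.37% of all genes were lower without overlap).

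In juvenile LPS+MV lungs Socs7 had 186, 194 and 292, and in juvenile LPS lungs 143, 143, 135 and 134. Juvenile MV lungs had 224, 195 and 206, and juvenile controls 168, 194, 151 and 191. Every LPS lung lay below every lung of the other 3 juvenile groups. The MV lungs lay just above the controls without overlap (0.21 ± 0.11, limma adjusted p = 0.23), where 7.95% of all genes were higher without overlap. LPS+MV exceeded LPS by 0.56 ± 0.11 (limma adjusted p = 0.0012), a call kept under all 18 alternatives, as was the adult one. With the mean over probe sets the differences were smaller, 0.35 in juveniles and 0.25 in adults (limma adjusted p = 0.0032 and 0.028), and probe set 1420766_at gave 0.01 and -0.02 (limma adjusted p = 0.97 and 0.87). Against control, juvenile LPS fell by 0.28 (limma adjusted p = 0.0497), a call that 12 of 18 alternatives ended, among them leaving out any LPS replicate or control replicate 1, 2 or 4 (-0.24 to -0.30, limma adjusted p = 0.063 to 0.14). Adult LPS gave -0.25 ± 0.10 (limma adjusted p = 0.060), which passed without adult control replicate 1 or 3 or adult LPS replicate 4 (-0.29 to -0.30, limma adjusted p = 0.040 to 0.048). These falls are those of the brightest probe set. In LPS lungs and controls 1434834_at had means of 136 and 140 in juveniles, with overlapping ranges, and 142 and 132 in adults. For 1420766_at they were 38.7 and 37.6 in juveniles, and 31.9 and 36.2 in adults.

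Socs7 was also the 1 member with an interaction of LPS and MV in adults, 0.58 ± 0.15 (limma adjusted p = 0.019), a comparison in which 5.5% of all genes were called higher. These were 76.8% of its calls, and 46.8% after quantile normalization. The juvenile interaction was 0.35 ± 0.16 (limma adjusted p = 0.36), and 0 of 8 members passed there (0.749% of genes in either direction), with 1 (Socs7 itself) at an unadjusted p under 0.05. The adult interaction was called in the brightest probe set, while 1434834_at gave 0.12 and 1420766_at gave -0.03, and it ended with the mean over probe sets (0.22, limma adjusted p = 0.17) and without adult control replicate 2 (0.52, limma adjusted p = 0.0504). Probe set 1434834_at rose in adult LPS+MV against control (0.37, limma adjusted p = 0.020) and exceeded LPS in juvenile LPS+MV (0.47, limma adjusted p = 0.020). Its juvenile LPS+MV arrays had 145, 175 and 306, overlapping with 139.7, 157, 125 and 124 in juvenile LPS, and without LPS+MV replicate 3, an array high in heat shock genes, the difference was 0.19 (limma adjusted p = 0.29). The brightest gave 0.24 and 0.28 for LPS+MV against control in adults and juveniles (limma adjusted p = 0.060 and 0.055), values that passed without adult control replicate 2 (0.30) or adult LPS+MV replicate 2 (0.28), and without juvenile control replicate 2 or 4 or juvenile LPS+MV replicate 1 or 2 (0.32 to 0.39).

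**Figure D4:**
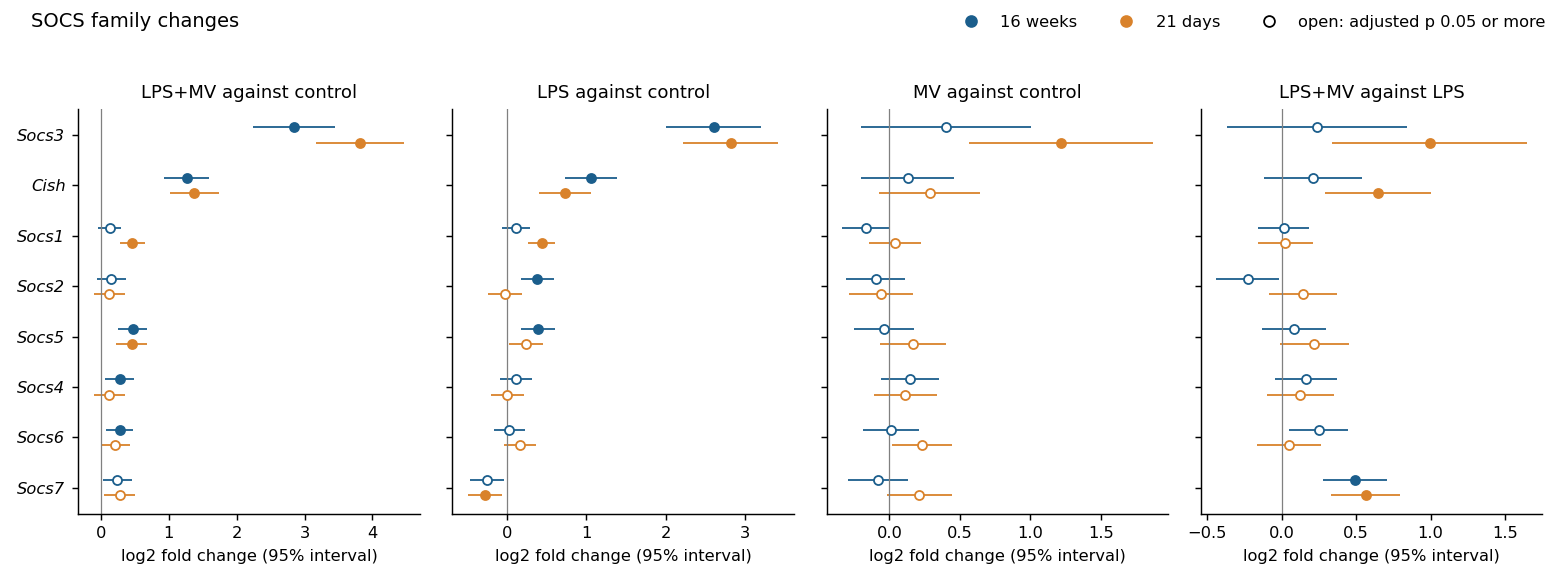
Log2 fold change with its 95% interval for each member in 4 comparisons, adults in blue above juveniles in orange, with filled symbols where the adjusted p was under 0.05. Socs3 and Cish lead LPS+MV and LPS against control, and Socs7 is called in LPS+MV against LPS at both ages (0.49 in adults and 0.56 in juveniles).

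Against MV alone, adult LPS+MV raised 5 of 8 members (12% of all genes were called higher, which were 69.2% of the calls and 42.8% after quantile normalization). They were Socs3 (2.44), Cish (1.14), Socs5 (0.51), Socs7 (0.33) and Socs1 (0.29). The Socs7 call ended after quantile normalization (0.22, limma adjusted p = 0.083) and with the mean over probe sets (0.14, limma adjusted p = 0.21). It also ended without adult MV replicate 3 or 4 or adult LPS+MV replicate 3 or 4 (0.27 to 0.30). The count fell to 3 without adult LPS+MV replicate 3. In juveniles 3 of 8 were higher (6.93% of all genes), namely Socs3 (2.60), Cish (1.09) and Socs1 (0.43). The juvenile Socs1 call ended without the 2 arrays high in heat shock genes (0.30, limma adjusted p = 0.061). Adult MV lungs were lower than juvenile MV lungs in Socs7 (-0.38 ± 0.11, limma adjusted p = 0.015), where 15% of all genes were lower in adults. That is the brightest probe set. In adult and juvenile MV lungs 1434834_at had means of 152 and 170, and 1420766_at had 36.6 and 36.7.

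Genes around the SOCS family were counted in lists drawn from textbook knowledge. Of 23 cytokine ligands that signal through JAKs 9 passed the filter on dim signal, which a gene can pass through its LPS arrays alone, so their count is no measure of the list. In adult LPS+MV the ligands with the smallest p were Csf2, a growth factor of myeloid cells (3.47), and Il6 (4.60). In juvenile LPS+MV the values were 2.92 and 4.56. Il6 was higher after LPS+MV than after LPS in juveniles (2.37, limma adjusted p = 2.0e-04), and in adults the difference was 1.08 (limma adjusted p = 0.070).

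Among 24 cytokine receptor chains tested, 10 rose and 1 fell in adult LPS+MV, and 14 rose and 0 fell in juvenile LPS+MV, each against control. The list medians were 0.17 and 0.33, beside -0.05 over all genes. Osmr, the oncostatin M receptor, rose by 1.93 and 2.03 in adults and juveniles. Lifr, the receptor of leukaemia inhibitory factor, fell by 0.80 in adult LPS+MV and by 1.10 in adult LPS. Over all genes 14.8% rose and 27.3% fell in adult LPS+MV, and 10.8% and 20.5% in juvenile LPS+MV, shares that also apply to the lists that follow. Adult MV raised 3 chains and lowered 10, where 7.17% of all genes rose and 24.3% fell, and juvenile MV raised 1 and lowered 0 (4.41% and 6.45%). High Xist and ventilation cannot be told apart in adult MV against control (4 of 4 and 0 of 4 arrays high). Of all calls there 22.8% were higher, and 41.5% after quantile normalization.

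Of the 4 JAK kinases, Jak2 rose in adult LPS+MV (0.85) and juvenile LPS+MV (0.70), and Tyk2 fell by 0.28 in adult LPS+MV. Of 6 STAT factors tested, 4 rose and 1 fell in adult LPS+MV, and 5 rose in juvenile LPS+MV. Stat3, the factor downstream of interleukin 6, rose in both (0.86 and 1.28), and in juvenile MV (0.49, limma adjusted p = 0.0085).

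Other inhibitors of the pathway gave 2 rises and 1 fall among 13 in adult LPS+MV and 5 rises in juvenile LPS+MV, of which the adult rises are close to the share of all genes. Ptpn2, a phosphatase of JAKs and STATs, rose by 2.31 and 2.00, and it also passed in adult MV (0.93, limma adjusted p = 5.9e-08). Usp18, a brake on type I interferon receptors, rose in adult LPS (0.74) and juvenile LPS (2.19).

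Of the subunits of the ubiquitin ligase that the SOCS box recruits, 8 of 9 were tested. Adult LPS+MV raised 4 and lowered 1, and juvenile LPS+MV raised 2 and lowered 3. Elob, the elongin B adaptor, fell by 0.35 in adult LPS+MV, by 0.60 in juvenile LPS+MV and by 0.47 in juvenile MV, and Ube2f, which charges cullin 5 with Nedd8, rose in LPS+MV by 1.01 in adults and 0.76 in juveniles. Of 11 reported SOCS substrates outside the JAK-STAT core, 5 rose and 3 fell in adult LPS+MV. Tirap, a Toll-like receptor adaptor, rose by 0.68, and Irs1, an insulin receptor substrate, fell by 0.89.

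Of 12 STAT3 targets tested, 10 rose in adult LPS+MV, 9 in adult LPS (12.9% of all genes), 11 in juvenile LPS+MV and 10 in juvenile LPS (9.58%). Their median change was 1.65 in adult LPS+MV and 1.66 in juvenile LPS+MV, beside -0.05 over all genes. In adult MV 2 rose and 1 fell (7.17% and 24.3% of all genes), and in juvenile MV 3 rose (4.41%). Of STAT5 targets 5 of 8 rose and 1 fell in adult LPS+MV, 4 rose in adult LPS (12.9% of all genes rose and 23% fell), and 1 rose and 1 fell in adult MV. In juveniles 3 rose after LPS+MV. After juvenile LPS 1 rose and 1 fell (list median -0.07), where 9.58% of all genes rose and 13.3% fell. After juvenile MV 1 fell (list median -0.15), where 6.45% of all genes fell. The median of the STAT5 targets was 0.49 in adult LPS+MV and 0.30 in juvenile LPS+MV. For JAKs, STATs, other inhibitors, ligase subunits and substrates the medians were -0.02, 0.39, -0.01, 0.12 and 0.16 in adult LPS+MV, and 0.26, 0.64, 0.11, -0.03 and 0.30 in juvenile LPS+MV. Treatment groups of an age share their controls, so these counts are not independent of each other.

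The genes whose group means ran most like those of a member were found by Pearson's r over the 8 group means of log2(intensity + 32), as a description without a p. The means share arrays and the same treatments. For Socs3 they were Junb (r 0.99), Smad3 (0.99) and Clec4d (0.99), and for Cish Il6, Arid5a and Rel (r 0.997, 0.993 and 0.993). Socs1 was closest to Tfe3 (0.98), Csf1 (0.97) and Ifih1 (0.97), and Socs5 to Cd33, Cd300lf and Gpr65 (each 0.99). For Socs2 they were Slc7a5 (0.95), Capza1 (0.94) and Slc7a6os (0.93), and for Socs4 Paxbp1, Armcx3 and Fbxw11 (0.99, 0.99 and 0.98). Socs6 was closest to Rrad (0.96), Stambpl1 (0.93) and Tbc1d15 (0.92), and Socs7 to Nt5c2 (0.98), Atxn1l (0.97) and Ythdc2 (0.96). Among the 3 neighbours of Socs3, Junb rose by 2.36 in adult LPS+MV and by 3.39 in juvenile LPS+MV, and Smad3 by 0.47 and 0.81.

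Ranked by mean, the Socs3 levels ran from adult LPS+MV through juvenile LPS+MV to adult LPS, whose ranges overlapped in turn. Juvenile LPS came next and overlapped with neither neighbour in the order. Adult MV, juvenile MV and adult control followed, overlapping in turn, and juvenile control lay apart at the bottom. For Cish, Socs2, Socs4, Socs5, Socs6 and Socs7 every neighbour in the order overlapped with the next, so no single step in their order exceeded the spread. For Socs1 the 1 break fell between adult control and juvenile MV.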

How the data were processed

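Whole-lung RNA of 30 mice was measured on 1-colour arrays, and the deposited values are intensities on a linear scale, 1 column per animal. The submitters' processing notes name MAS5, and the normalization used is not given in the sources used here. Of 45037 probe sets, 34945 had 1 gene symbol, 932 several and 9160 were not listed in the platform annotation. Probe sets that exceeded the median of the array on 3 or more arrays were kept, each gene was represented by its brightest probe set, and log2(intensity + 32) was fitted over all 8 groups with limma 3.58.1 in R 4.3.3 (trend, 22 residual and 4.87 prior degrees of freedom). Figures were drawn with matplotlib 3.10.9. There were 16 comparisons, and 3 more added after the levels were seen. The fit was tested on simulated data. All 8 members, their 3 nearest genes by Pearson's r and up to 4 genes of each list with the smallest p were named by rule. The members and lists were chosen with earlier results of these data known. 1 of the gene lists is not reported here. Promoter windows are from RefSeq (GRCm38.p6). The labels name 1 animal per sample, and litter, sex and array batch are not given.

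Replicate numbers are shared between groups. Of 40 same-numbered pairs 16 had deviations correlated over 0.1 (range -0.217 to 0.417). Only in juvenile LPS+MV against MV did all 3 pairs pass 0.1 (0.118 to 0.327). The labels give no pairing, and replicate 3 of both these groups was high in heat shock genes and in Xist. Whether the numbers pair samples cannot be told from these values. The printed values of that comparison come from the fit without the block, and the blocked fit called the same 3 members. Each result was recomputed with quantile-normalized arrays, with 1 as the pseudocount, without the filter, with probe sets of a gene averaged, without the trend in the prior variance, with weighted arrays, in a fit of 2 groups at a time or those an interaction needs, with a replicate block, with a term for high Xist and leaving out each replicate. After seeing the data, fits without the 2 arrays high in heat shock genes and without the 4 arrays least like their group were added, and the probe sets were refitted without juvenile LPS+MV replicate 3.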

Additional observations from a re-analysis of the deposited data

Results flagged for a closer look

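Of 48 groups of 4 arrays tested for a single array far from the rest, 4 were picked out, where chance picks about 5%. Socs2 was 470.1 on juvenile control replicate 1, against 523 to 531 on the other 3 arrays. Socs3 was 1397 on juvenile LPS replicate 1, against 1095 to 1134 on the others. Cish was 587 on that same array, against 434 to 456. Socs6 was 128 on adult LPS replicate 3, against 102 to 104 on the others.

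For the brightest Socs7 probe set, the effect of ventilation in adults differed with and without LPS, with an interaction of 0.58 (limma adjusted p = 0.019). The call ended with the mean over probe sets (0.22, limma adjusted p = 0.17) and without adult control replicate 2 (0.52, limma adjusted p = 0.0504).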

How the results depend on the processing

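Over 128 pairs of a member and a comparison, 32 were called, of which 22 kept their call under every alternative and 10 lost it under at least 1. Of the 96 not called, 21 gained a call under at least 1 alternative. No called value changed sign. The number of members called in adult MV against control was 1, in place of 0, after quantile normalization (Socs4), in the fit of only the compared groups (Socs1) and with the term for high Xist (Socs1). For the adult interaction of LPS and MV it was 0 with the mean over probe sets, in place of 1. For juvenile MV against control it was 2 with array weights and 0 with only the compared groups, without the 2 arrays high in heat shock genes and without the 4 arrays least like their group, in place of 1. For juvenile LPS+MV against LPS it was 1 with the Xist term and in both fits without whole arrays, in place of 3. For adult against juvenile control it was 2 after quantile normalization, with the mean over probe sets, with array weights and without the 4 arrays, and 3 with the Xist term, in place of 1. For the interaction of age with MV it was 1 with array weights (Socs3), in place of 0. Leaving out each replicate in turn gave 3 to 6 members for adult LPS+MV against control, 4 to 5 for adult LPS, 3 to 7 for adult LPS+MV against MV, 0 to 1 for the adult interaction, 4 to 5 for juvenile LPS+MV, 3 to 4 for juvenile LPS, 0 to 1 for juvenile MV, 1 to 3 for juvenile LPS+MV against LPS, 1 to 2 for adult against juvenile control and 0 to 1 for age with LPS, and moved no other count. The replicate block gave 3 members in juvenile LPS against control, in place of 4, and changed no other count, that of juvenile LPS+MV against MV included. Except where an alternative uses fewer arrays, the cause of these moves was not tested. Quantile normalization moved the share of all calls that were higher in adult MV against control to 41.5%, in place of 22.8%. Over all genes, counts of calls moved by over 1.5 times as follows. Array weights gave 1776 in adult LPS+MV against LPS (922 as reported), 1604 in the adult interaction (937), 2616 in juvenile MV (1421), 3433 in juvenile LPS+MV against LPS (2019), 4724 in juvenile LPS+MV against MV (1925), 508 in the juvenile interaction (98), and 1723, 943 and 2075 for age with LPS+MV, LPS and MV (275, 483 and 803). Only the compared groups gave 27 in juvenile MV, 2659 in juvenile LPS+MV against control (4099), 1324 against LPS, 1045 against MV, 38 in the juvenile interaction, and 71 and 410 for age with LPS+MV and MV. The Xist term gave 1712 in adult MV (4123), 246 in adult LPS+MV against LPS, 1132 in juvenile LPS+MV against LPS and 189 for age with MV. Without the 4 arrays, age with LPS+MV, LPS and MV had 646, 1108 and 1650, and without the 2 arrays juvenile MV had 788. The replicate block gave 418 for age with LPS+MV, and quantile normalization 157 in the juvenile interaction. Leaving out 1 array gave 541 without LPS replicate 2 and 595 without LPS+MV replicate 3 in adult LPS+MV against LPS. The adult interaction had 477 without control replicate 2, 497 without MV replicate 3, 581 and 569 without LPS replicates 2 and 3, and 554 and 574 without LPS+MV replicates 2 and 4. Juvenile MV had 899 and 651 without MV replicates 1 and 3, juvenile LPS+MV against LPS 1277 without LPS+MV replicate 3, and the juvenile interaction 63 without MV replicate 1 and 54 without LPS+MV replicate 3. Age with LPS+MV had 95, 167 and 1136 without juvenile control replicates 1, 2 and 4, 167 without juvenile LPS+MV replicate 3, 464, 143 and 160 without adult control replicates 1, 3 and 4, and 171 without adult LPS+MV replicate 3. Age with LPS had 825 without juvenile control replicate 4. Age with MV had 499 and 1307 without juvenile control replicates 1 and 4, 468 and 326 without juvenile MV replicates 1 and 2, and 508 without adult MV replicate 3. No scaling moved the median of all genes by over 0.1. Socs1 lay below the array median on every array of 3 groups.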
